A study of Mus musculus with 6 samples.

Results

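The genes of triglyceride assembly and glycerol-3-phosphate supply were followed by RNA-seq in the inguinal fat of cold-stimulated mice as a set of 9 members: Gpam, Agpat2, Agpat3, Lpin1, Lpin2, Dgat1, Dgat2, Gpd1 and Pck1. They were taken by name, and all 9 had a value among the 17342 named genes. The libraries came from Rarres2-/- mice, in which the gene of the secreted adipocyte protein chemerin is disrupted (3 libraries, replicates 4, 5 and 6), and from wild-type (WT) mice (3 libraries, replicates 1, 2 and 3). All mice were 8-week-old C57BL/6 mice, and both genotypes had been exposed to cold, of a temperature and duration that the labels leave unstated. The labels also leave unstated which part of Rarres2 was deleted and the sex of the mice. Nor do they say whether the 3 libraries of a genotype are 3 mice. If they are not, p-values measure only the spread between these libraries, which may be technical.

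Adipocytes store fatty acids by adding fatty acyl chains, stepwise, to a backbone of glycerol-3-phosphate. A glycerol-3-phosphate acyltransferase (GPAT) adds the first chain and an acylglycerol phosphate acyltransferase (AGPAT) the next, a lipin then removes the phosphate, and a diacylglycerol acyltransferase (DGAT) adds the last chain. White adipocytes hold little glycerol kinase, so the backbone comes mainly from glucose or, by a route called glyceroneogenesis, from pyruvate and lactate through Pck1. In the cold, brown and beige fat break triglycerides down and rebuild them at the same time.

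None of the 9 genes passed the test across all genes in the unweighted fit of all 6 libraries. Of the 9, 8 were higher on average in Rarres2-/- fat, with Pck1 (2.02-fold) and Gpam (1.90-fold) showing the widest average gaps, but Gpam alone had every Rarres2-/- library above every WT library. The Pck1 value depends on single libraries, with a log2 difference of 0.96 with all of them. Without Rarres2-/- replicate 4 it was 0.54, behind Gpam (0.92), Gpd1 (0.79) and Agpat2 (0.77). Without Rarres2-/- replicate 5 the Pck1 difference was 1.39, and without WT replicate 3 it was 1.36. Lpin2 was the member with a lower average in Rarres2-/- fat. In both genotypes Pck1, Gpd1, Dgat2 and Agpat2 were the most abundant members, and Gpam and Lpin2 the least.

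Regulatory sequence is shown for Gpam and Pck1, chosen after their values were seen because they had the widest average gaps between the genotypes. Each sequence is the 250 bases before a start in RefSeq on GRCm38.p6, in the direction of the gene. The Pck1 stretch is chr2:173152823-173153072 on the plus strand. The Gpam stretch is chr19:55099478-55099727 on the minus strand, before the second of 2 starts listed for that gene, and lies inside the gene, which spans chr19:55067635-55127319. Capitals mark the letters ACGTCA, which are TGACGT on the other strand, the core of the cAMP response element, and in Gpam also AGGTCA, a motif of many nuclear receptors. Of the 2 Gpam starts, the printed one is the one that shares TGACGT with Pck1. The window before the first start, not printed, holds neither TGACGT nor AGGTCA.
Pck1: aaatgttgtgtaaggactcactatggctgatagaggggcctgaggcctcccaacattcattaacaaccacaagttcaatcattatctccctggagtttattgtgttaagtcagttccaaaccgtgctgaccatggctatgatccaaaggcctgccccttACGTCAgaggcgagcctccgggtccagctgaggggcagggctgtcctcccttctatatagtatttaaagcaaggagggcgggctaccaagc
Gpam, second start: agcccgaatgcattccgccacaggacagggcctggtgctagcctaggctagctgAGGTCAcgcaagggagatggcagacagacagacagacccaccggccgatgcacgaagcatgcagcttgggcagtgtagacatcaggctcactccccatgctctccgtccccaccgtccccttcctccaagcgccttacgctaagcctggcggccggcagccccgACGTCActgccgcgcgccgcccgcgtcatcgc
The TGACGT core ends 86 bases before the Pck1 start and 27 bases before the second Gpam start, counted as positions -91 to -86 and -32 to -27. It stands on either strand in 6.47% of the 32851 promoters of the same length in the table. The AGGTCA letters at -196 to -191 before that Gpam start are found in 14.0% of all promoters. Of the 9 members, 6 had an entry, with 9 starts between them. In the other entries AGGTCA also stood before the Lpin1 start, CACGTG (6.02% of all promoters) stood before 1 Lpin2 start, and CCAAT (33.8%) stood before the first Gpam start and another Lpin2 start. TATAAA (12.4% of all promoters) stood before none of the 9 starts. Each motif was sought on both strands. These matches describe the letters of the windows and are not evidence of a site in use.

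Expression was deposited as FPKM, a fragment number divided by the transcript's length and the library's mapped total, so levels of different genes are set side by side per length. How many reads lie behind the values is not known. From the step between low values, Rarres2-/- replicate 6 had 0.697 and WT replicate 1 had 0.486 of the depth of WT replicate 2, and the other libraries lay between 0.75 and 1.01 of it. A library pair stood apart. In Rarres2-/- replicate 4 the 2623 genes with the shortest transcripts (67 to 2137 bases) had a median deviation of -0.27 log2 units from their means over the libraries and the 2620 with the longest 0.12, while in the other 5 libraries the short genes lay between -0.01 and 0.17. In WT replicate 1 a small nucleolar RNA gene, Snord2, held 62.1% of the summed FPKM. Its tested genes had a median of 9.05 FPKM, beside 9.05 to 9.37 FPKM in the other libraries. Without small RNA genes its sum was 608182 FPKM, beside 453915 to 678113 FPKM in the others. Rarres2 itself had 0.260, 6.35 and 1.41 FPKM in Rarres2-/- replicates 4, 5 and 6, against 436, 610 and 505 FPKM in WT replicates 1, 2 and 3, as the labels have it. Its log2 difference of -7.51 (SE 0.592) had an adjusted p of 0.0597 by limma, 0.00198 to 0.469 over the alternatives.

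Genotypes were compared with limma on log2(FPKM + 1) for the 11086 genes whose mean reached 1 FPKM. All 9 members passed that filter. A log2 difference is Rarres2-/- minus WT, and a gene counted as past the threshold at a Benjamini-Hochberg adjusted p under 0.05. No gene passed in either direction, which is 0% of those tested higher and 0% lower, and after Rarres2 the smallest adjusted p was 0.519. At an unadjusted p under 0.05, 244 genes were higher in Rarres2-/- fat (2.2%) and 436 genes differed in either direction (3.93%), and 1 of the 9 members, Gpam, was among them. Other limma settings gave 0 or 1 gene past the threshold, except array weights and the fit without both libraries that stood apart, which are described after the members.

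Gpam encodes the mitochondrial GPAT that makes lysophosphatidic acid from glycerol-3-phosphate. It had 33.0, 43.2 and 28.2 FPKM in Rarres2-/- replicates 4, 5 and 6, against 14.1, 22.7 and 18.1 FPKM in WT replicates 1, 2 and 3. The groups did not overlap, and the lowest Rarres2-/- library stood above the highest WT library. Means were 34.8 ± 7.63 FPKM in Rarres2-/- fat and 18.3 ± 4.29 FPKM in WT fat (SD, n = 3 each), and the log2 difference was 0.89 (SE 0.231, 95% interval 0.35 to 1.44). By limma its unadjusted p was 0.0064 and its adjusted p 0.999, and 1.08% of tested genes had a wider difference in either direction. One of the 9 members was thus higher without overlap, beside 5.81% of all tested genes, and 0 were lower without overlap, beside 4.53%. The other GPAT genes were Agpat9 (Gpat3) and Agpat6 (Gpat4), both in the endoplasmic reticulum, and Gpat2, which was below the filter. Agpat9 had 47.7, 60.2 and 78.5 FPKM in Rarres2-/- libraries and 43.9, 54.5 and 49.8 FPKM in WT libraries. Agpat6 had 70.9, 110.4 and 104 FPKM in Rarres2-/- libraries and 75.5, 80.5 and 76.0 FPKM in WT libraries. Both genes were thus more abundant than Gpam in every library, and their groups overlapped. Gpam made up 18.5 ± 4.43% of the summed FPKM of the 4 GPAT genes in Rarres2-/- fat and 12.5 ± 1.91% in WT fat, and these shares overlapped between the groups.

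**Figure D1:**
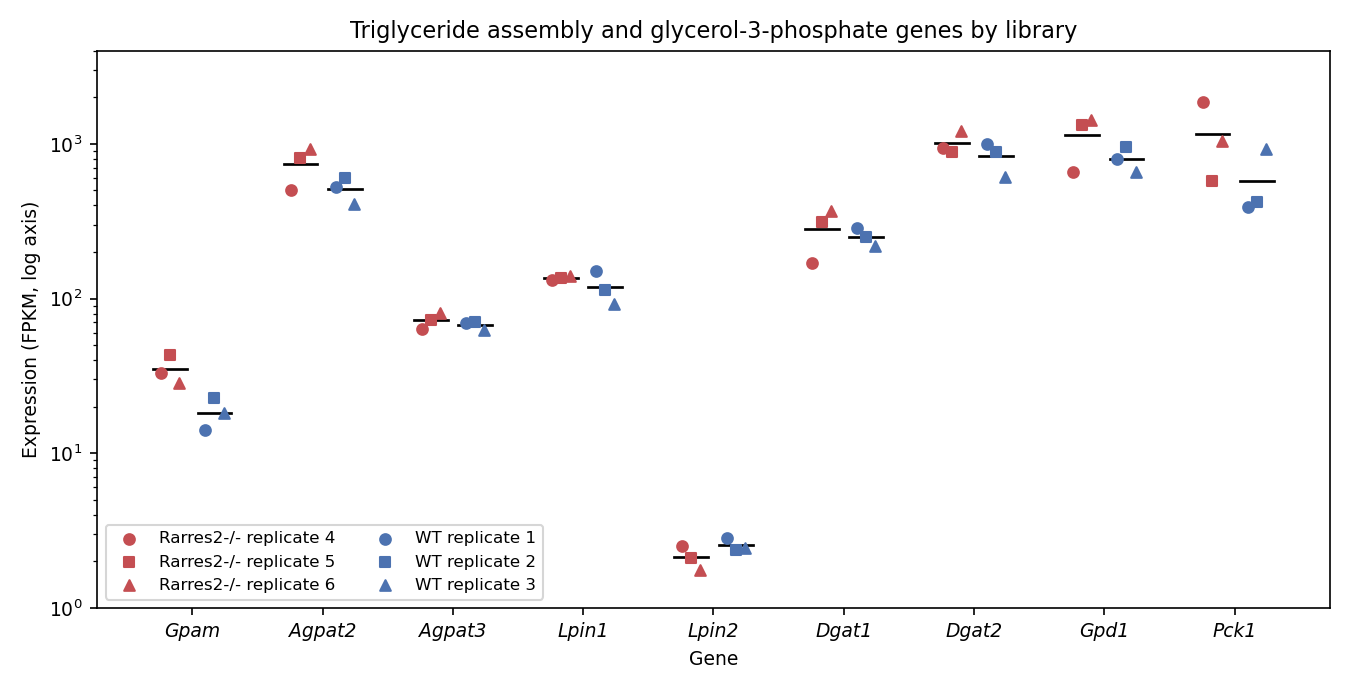
FPKM of the 9 genes in each library on a log axis, with Rarres2-/- libraries to the left of WT libraries for each gene and horizontal bars at the group means. The 3 Rarres2-/- values of Gpam (28.2 to 43.2 FPKM) lie above the 3 WT values (14.1 to 22.7 FPKM), and the points of the other 8 genes overlap.

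Agpat2 (chr2:26593057-26604417, minus strand, GRCm38.p6 as for the other positions) is the main AGPAT of adipose tissue, and its loss in humans and mice causes a lack of fat. It had 506, 807 and 925 FPKM in Rarres2-/- replicates 4, 5 and 6, and 529.8, 597 and 408 FPKM in WT replicates 1, 2 and 3. Of the 3 Rarres2-/- libraries, 2 exceeded all WT libraries, and replicate 4 lay among them. The averages of 746 ± 216 FPKM in Rarres2-/- fat and 512 ± 95.9 FPKM in WT fat (SD, n = 3 each) gave a log2 difference of 0.51 (SE 0.294, 95% interval -0.18 to 1.21, unadjusted p 0.124 by limma). Agpat3 (chr10:78269174-78352497, minus strand), a related acyltransferase of the endoplasmic reticulum and Golgi, had 63.9, 72.2 and 80.9 FPKM in Rarres2-/- libraries and 69.7, 70.3 and 63.0 FPKM in WT libraries. Its highest library was 1.29 times its lowest, the narrowest range of the 9 genes, and its log2 difference was 0.09 (95% interval -0.29 to 0.47). Although the sizes differed, the 6 libraries stood in the same order for both genes, with Rarres2-/- replicate 6 highest and WT replicate 3 lowest. Agpat2 held 83.5 ± 2.98% of the summed FPKM of Agpat1 to Agpat5 in Rarres2-/- fat and 79.0 ± 2.96% in WT fat, and Agpat3 held 8.4 ± 1.49% in Rarres2-/- fat and 10.6 ± 1.05% in WT fat.

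Lipins convert phosphatidic acid to diacylglycerol, and Lpin1 (chr12:16535669-16653903, minus strand) is the lipin whose loss depletes fat in mice. Lpin1 had 131, 136 and 139.7 FPKM in Rarres2-/- replicates 4, 5 and 6, against 149.7, 113 and 92.9 FPKM in WT replicates 1, 2 and 3. The Rarres2-/- libraries lay close together, with a coefficient of variation of 3.28%, inside the range of the WT libraries, whose coefficient of variation was 24.3%. The log2 difference was 0.22 (SE 0.210, 95% interval -0.28 to 0.72). Lpin2 (chr17:71183532-71249818, plus strand), better known from liver and macrophages, had 2.51, 2.11 and 1.75 FPKM in Rarres2-/- libraries and 2.81, 2.35 and 2.45 FPKM in WT libraries. Its mean was 2.12 ± 0.383 FPKM in Rarres2-/- fat and 2.54 ± 0.242 FPKM in WT fat, and its log2 difference was -0.18 (SE 0.158, 95% interval -0.56 to 0.19). Lpin3 was as scarce as Lpin2, at 3.51, 1.80 and 1.48 FPKM in Rarres2-/- libraries and 4.27, 2.44 and 1.80 FPKM in WT libraries. Lpin1 accordingly held 96.9 ± 1.12% of summed lipin FPKM in Rarres2-/- fat and 95.7 ± 0.232% in WT fat.

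Dgat1 (chr15:76502012-76512021, minus strand) and Dgat2 (chr7:99153663-99182713, minus strand) are unrelated in sequence and both attach the final acyl chain. Dgat1 had 169, 314 and 366 FPKM in Rarres2-/- replicates 4, 5 and 6, and 286, 249 and 219 FPKM in WT replicates 1, 2 and 3. Rarres2-/- replicate 4 was the lowest of the 6 libraries for Dgat1, and replicates 5 and 6 were the highest. The log2 difference of 0.10 (SE 0.316, 95% interval -0.65 to 0.86) was negative without Rarres2-/- replicate 5 (-0.01) or without replicate 6 (-0.12). Its longest GENCODE M21 transcript has 1888 bases, among the short transcripts that were low in replicate 4, and so has that of Agpat2 with 1489 bases. Rarres2-/- replicate 6, the highest library for Dgat1 and Agpat2, had the opposite trend. There the shortest transcripts had a median deviation of 0.17 log2 units and the longest -0.10. With each library's length trend removed no gene passed the threshold, and the log2 difference was 0.12 for Dgat1 and 0.56 for Agpat2 (unadjusted p 0.0292 by limma). In Rarres2-/- replicate 4 Dgat1 deviated from its mean by -0.62 and Agpat2 by -0.26. Of members with longer transcripts, Gpd1 (2861 bases) deviated there by -0.49 and Pck1 (2728 bases) by 1.33. The part of transcript length in these values was not tested. Dgat2, whose product prefers newly made fatty acids, had 946, 884 and 1212 FPKM in Rarres2-/- libraries and 1005, 881 and 614 FPKM in WT libraries. Its mean was 1014 ± 174 FPKM in Rarres2-/- fat and 833 ± 199.9 FPKM in WT fat (SD, n = 3 each), with overlapping groups and a log2 difference of 0.30 (SE 0.267, 95% interval -0.33 to 0.93). The ratio of Dgat2 to Dgat1 FPKM was 5.61, 2.82 and 3.31 in Rarres2-/- libraries and 3.51, 3.54 and 2.80 in WT libraries.

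Gpd1 (chr15:99717587-99725014, plus strand) reduces dihydroxyacetone phosphate to glycerol-3-phosphate. It had 659, 1321 and 1436 FPKM in Rarres2-/- replicates 4, 5 and 6, and 797, 951 and 661 FPKM in WT replicates 1, 2 and 3. As for Dgat1, the Rarres2-/- libraries held both the lowest value, in replicate 4, and the 2 highest. Means of 1139 ± 419 FPKM in Rarres2-/- fat and 803 ± 145 FPKM in WT fat (SD, n = 3 each) gave a log2 difference of 0.44 (SE 0.348, 95% interval -0.39 to 1.27). Gpd1 held 98.6 ± 0.338% of the summed FPKM of Gpd1 and Gpd1l in Rarres2-/- fat and 98.5 ± 0.566% in WT fat.

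Pck1 (chr2:173153073-173159274, plus strand) encodes cytosolic phosphoenolpyruvate carboxykinase, the enzyme that commits carbon to glyceroneogenesis. It had 1869, 579 and 1041 FPKM in Rarres2-/- replicates 4, 5 and 6, against 393, 418 and 921 FPKM in WT replicates 1, 2 and 3. One Rarres2-/- library, replicate 5, lay below WT replicate 3, so the groups overlapped. The highest library was 4.76 times the lowest, the widest range of the 9 genes, with coefficients of variation of 56.2% in Rarres2-/- fat and 51.6% in WT fat. Means were 1163 ± 653 FPKM in Rarres2-/- fat and 577 ± 298 FPKM in WT fat (SD, n = 3 each), and the log2 difference was 0.96 (SE 0.512, 95% interval -0.25 to 2.18, unadjusted p 0.103 by limma). Without both libraries that stood apart, WT replicate 1 and Rarres2-/- replicate 4, it was 0.32. The mitochondrial form, Pck2, had 6.76, 5.92 and 6.76 FPKM in Rarres2-/- libraries and 10.3, 7.76 and 8.87 FPKM in WT libraries. Its groups did not overlap, with the lower values in Rarres2-/- fat (log2 difference -0.41, SE 0.146, unadjusted p 0.0271, adjusted p 0.999 by limma). Pck1 held 99.3 ± 0.326% of the summed FPKM of both genes in Rarres2-/- fat and 98.2 ± 0.80% in WT fat. In Rarres2-/- libraries the ratio of Pck1 to Gpd1 FPKM was 2.84, 0.438 and 0.725, and in WT libraries 0.493, 0.440 and 1.39.

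**Figure D2:**
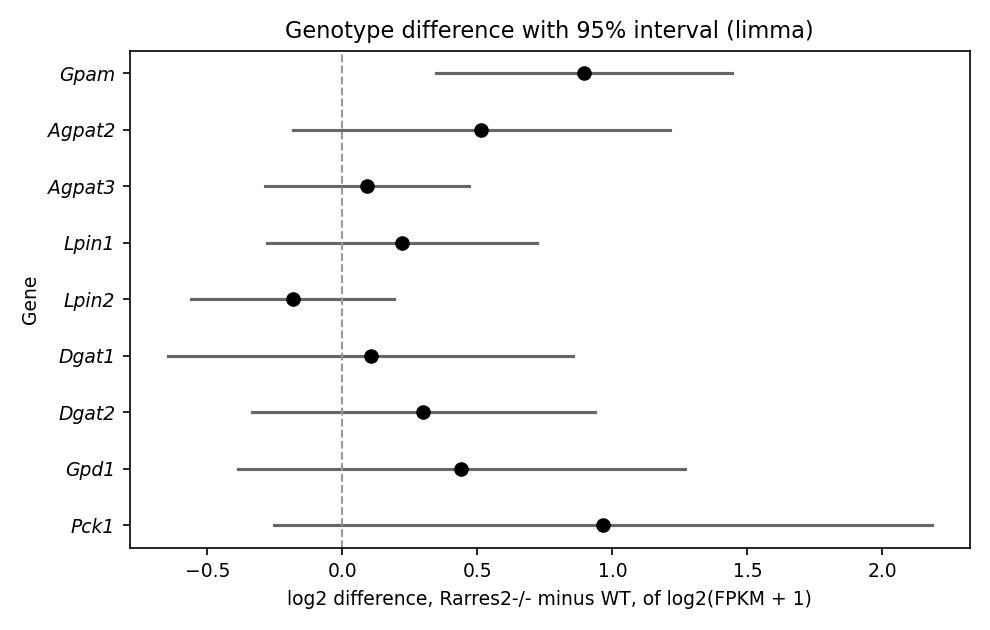
Difference in log2(FPKM + 1), Rarres2-/- minus WT, of the 9 genes with its 95% interval from limma. Of the 9 differences, 8 are above 0, and the interval of Gpam (0.35 to 1.44) is the only one of the 9 that does not include 0.

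In order of mean level, the Rarres2-/- libraries gave Pck1, Gpd1, Dgat2, Agpat2, Dgat1, Lpin1, Agpat3, Gpam and Lpin2. The WT libraries gave Dgat2, Gpd1, Pck1, Agpat2 and then the same 5 genes. Among the first 4 genes the ranges of neighbours overlapped in both genotypes, so their order is not resolved, while from Agpat2 down no neighbouring ranges overlapped in either genotype. The first 4 genes were each among the 165 most abundant of all named genes, whereas Gpam ranked 2685 and Lpin2 9583.

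Across the members, 8 of 9 log2 differences were positive, beside 48.6% of all tested genes, and the median was 0.30, beside -0.01 over all tested genes. Earlier results of these data were known when the 9 genes were chosen, so these values describe them only. The members are not independent of each other, since libraries that were high for one were often high for others. Rarres2-/- replicate 6 was the highest of all 6 libraries for 5 members and WT replicate 3 the lowest for 4. Rarres2-/- replicate 4 was highest for Pck1 and lowest for Dgat1 and Gpd1, and Rarres2-/- replicate 5 was highest for Gpam. Averaged over the members, each centred on its own mean, the libraries lay at 0.05, 0.18 and 0.32 log2 units in Rarres2-/- replicates 4, 5 and 6 and at -0.15, -0.13 and -0.28 in WT replicates 1, 2 and 3.

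**Figure D3:**
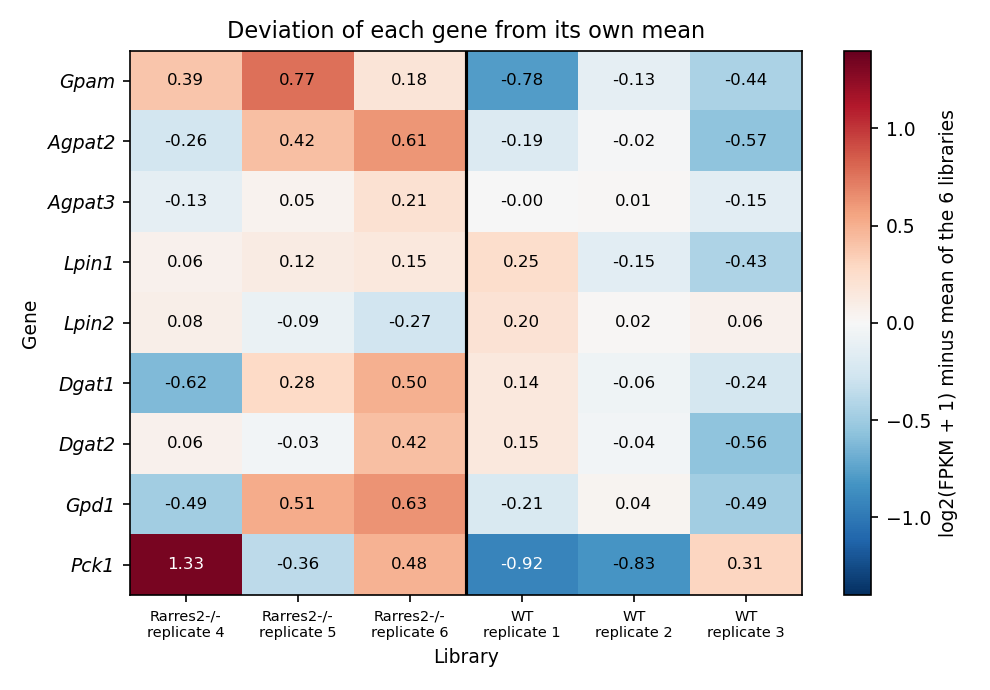
Heat map of the deviation of log2(FPKM + 1) from each gene's mean over the 6 libraries, with genes as rows and libraries as columns, Rarres2-/- on the left. Pck1 in Rarres2-/- replicate 4 (1.33) and in WT replicate 1 (-0.92) shows the strongest colours, and Agpat2, Dgat1 and Gpd1 are low in Rarres2-/- replicate 4 and high in replicates 5 and 6.

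The libraries that stood apart bear on these counts. Without Rarres2-/- replicate 4, 5 of the 9 members (Gpam, Agpat2, Agpat3, Dgat1 and Gpd1) were higher without overlap, beside 21.5% of all tested genes, and 1, Lpin2, was lower, beside 12.9%. Leaving out WT replicate 1 as well gave 7 higher, all but Lpin2 and Pck1, beside 31.7%, and Lpin2 lower, beside 26.5%. With 4 or 5 libraries more of all tested genes were without overlap, as those shares show. That smaller fit called 68 genes, 14 higher and 54 lower, with 0 members among them, and the member log2 differences ran from -0.22 (Lpin2) to 0.81 (Agpat2). Array weights, which let limma give each library a weight from its own scatter, put 0.179 on Rarres2-/- replicate 4 and 0.192 on WT replicate 1, against 6.19 on Rarres2-/- replicate 5. That fit called 1524 genes, of which 770 were higher in Rarres2-/- fat (6.95%), and 3 of the 9 members were among those: Gpam (log2 difference 0.99, adjusted p 0.0176), Agpat2 (0.68, adjusted p 0.0408) and Gpd1 (0.70, adjusted p 0.0419). Over all alternatives the adjusted p ran from 0.0176 to 1 for Gpam, from 0.0408 to 1 for Agpat2 and from 0.0419 to 1 for Gpd1. Pck1, whose difference was the widest of the 9 in the unweighted fit of all 6 libraries, was at 0.11 with the weights.

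Of the members, 4 pairs with neighbouring roles were compared within each library as the difference of their log2(FPKM + 1) values, by two-sided exact permutation tests, whose smallest possible p with 3 libraries in each group is 0.1. Dgat2 exceeded Dgat1 by 1.90 ± 0.518 log2 units in Rarres2-/- fat and by 1.70 ± 0.192 in WT fat (exact p = 0.8, adjusted over the 4 pairs 0.8). The excess of Lpin1 over Lpin2 was 5.46 ± 0.224 in Rarres2-/- fat and 5.05 ± 0.272 in WT fat (exact p = 0.2, adjusted 0.4). For Agpat2 over Agpat3 it was 3.31 ± 0.299 in Rarres2-/- fat and 2.89 ± 0.197 in WT fat (exact p = 0.2, adjusted 0.4). Pck1 minus Gpd1 was -0.05 ± 1.39 in Rarres2-/- fat and -0.57 ± 0.916 in WT fat (exact p = 0.7, adjusted 0.8). The groups overlapped for all 4 pairs. With quantile normalization Agpat2 minus Agpat3 differed by 0.51 with an exact p of 0.1, the smallest possible, and so did not overlap, while the other 3 pairs had an exact p between 0.2 and 0.7.

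In bulk tissue, fewer cells of a type and less RNA per cell cannot be told apart. Summed FPKM of 13 white adipocyte markers was 45498, 81324 and 84494 in Rarres2-/- replicates 4, 5 and 6, and 81578, 64965 and 70117 in WT replicates 1, 2 and 3, and 10 of the 13 had a positive log2 difference. Among them Plin1, Cidec, Lipe and Cd36 were higher in Rarres2-/- fat without overlap (4 of 13, beside 5.81% of all tested genes) and Cfd lower without overlap (1 of 13, beside 4.53%). The order of the Rarres2-/- libraries was that of Agpat2, Dgat1 and Gpd1. Each member was therefore also taken relative to the mean log2(FPKM + 1) of those markers in the same library. Gpam then lay at -5.26, -5.40 and -6.09 log2 units in Rarres2-/- libraries and at -6.76, -6.11 and -6.25 in WT libraries, a difference of 0.79. Agpat2 lay at -1.36, -1.21 and -1.10 in Rarres2-/- libraries and at -1.63, -1.45 and -1.83 in WT libraries, a difference of 0.41. For both genes all 3 Rarres2-/- libraries were above all WT libraries, and the two-sided exact permutation p was 0.1, the smallest possible (0.45 adjusted over the 9 members). The Gpam groups almost touched, at -6.09 in Rarres2-/- replicate 6 and -6.11 in WT replicate 2. Without WT replicate 1 and Rarres2-/- replicate 4 the differences were 0.43 for Gpam and 0.48 for Agpat2. With quantile normalization Agpat2 differed by 0.35 with an exact p of 0.2 and overlapping groups, and Lpin2 by -0.35 with an exact p of 0.1. Gpd1 differed by 0.34 (exact p = 0.2, adjusted 0.6) and Pck1 by 0.86 (exact p = 0.4, adjusted 0.643), with overlapping groups. The differences of Dgat2 (0.20), Lpin1 (0.12), Dgat1 (-0.00), Agpat3 (-0.01) and Lpin2 (-0.29) had exact permutation p between 0.4 and 1.

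**Figure D4:**
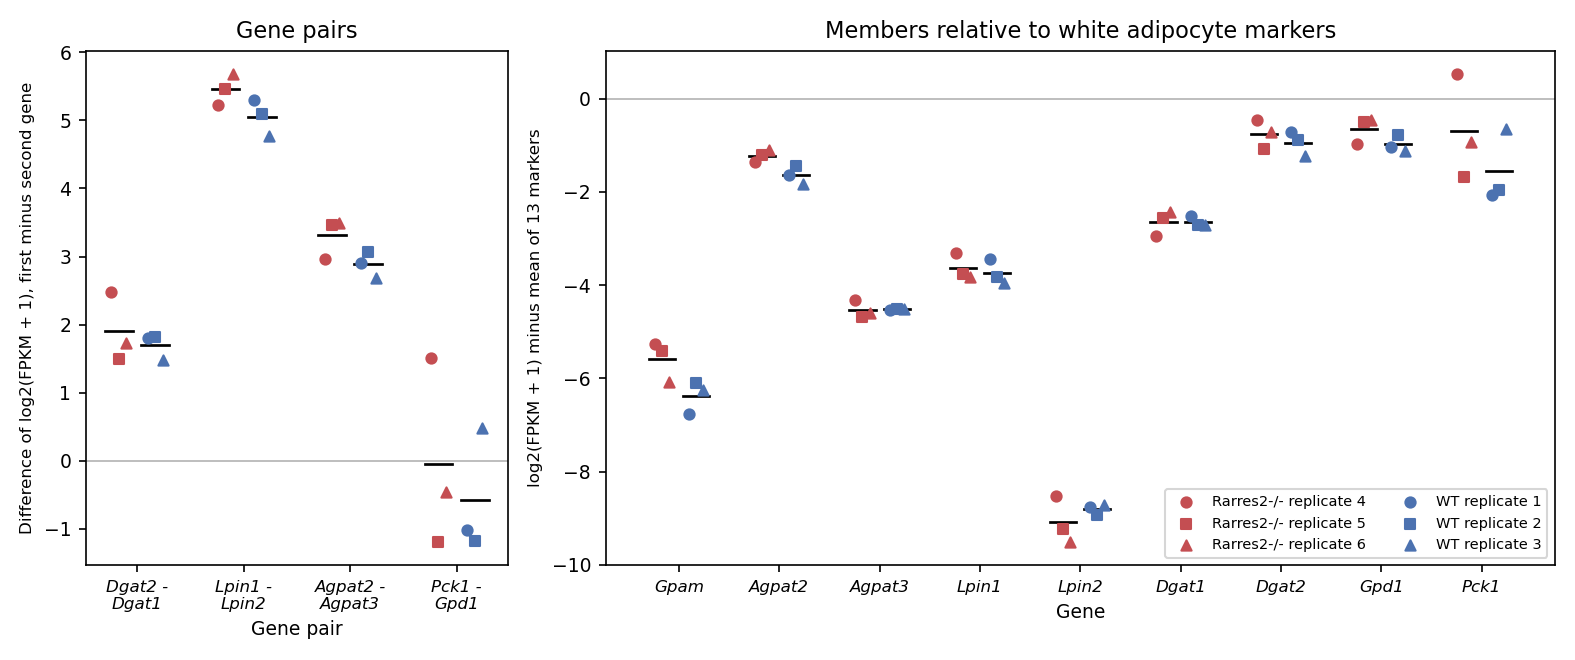
Level of each of the 9 genes relative to the mean of 13 white adipocyte markers in the same library, in log2 units, with Rarres2-/- libraries to the left of WT libraries. The groups separate for Gpam and Agpat2 (differences 0.79 and 0.41), though those of Gpam almost touch, and overlap for the other 7 genes.

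Sums of the markers of each other cell type overlapped between the genotypes, but single markers did not all do so. Macrophage markers summed to 436 to 564 FPKM in Rarres2-/- fat and 199 to 990 FPKM in WT fat, and all 7 had a negative log2 difference. Fibroblast markers summed to 2374 to 2544 FPKM in Rarres2-/- fat and 1246 to 5164 FPKM in WT fat. The lowest sums of both lists were those of WT replicate 1, the lowest library for Gpam and Pck1. Muscle markers summed to 239 to 410.3 FPKM in Rarres2-/- fat and 138 to 1144 FPKM in WT fat, again with the extreme in WT replicate 1. Within that list the fast myosin gene Myh1 was higher without overlap (1 of 7, beside 5.81% of all tested genes). It had 2.91, 4.01 and 1.26 FPKM in Rarres2-/- libraries against 0.158, 0.241 and 0.148 FPKM in WT libraries. Mb overlapped, at 11.8, 22.1 and 2.71 FPKM in Rarres2-/- libraries and 0.513, 3.33 and 0.886 FPKM in WT libraries (log2 difference 2.16). The means of Acta1, Ckm, Mylpf, Tnnt3 and Myh4 were lower in Rarres2-/- fat, each with its highest value in WT replicate 1. By log2 difference 4 of the 7 markers were higher and 3 lower. Endothelial markers summed to 110.4, 34.5 and 35.1 FPKM in Rarres2-/- replicates 4, 5 and 6 and to 169, 39.6 and 34.4 FPKM in WT replicates 1, 2 and 3, so the high values were those of the libraries that stood apart. Brown and beige markers summed to 709 to 1673 FPKM in Rarres2-/- fat and 1229 to 1322 FPKM in WT fat, most of it from Cox8b. Of these 6 markers 2 were higher in Rarres2-/- fat without overlap, Ucp1 and Dio2, beside 5.81% of all tested genes. The others overlapped, and Cox8b (log2 difference -0.28) and Cidea (-0.03) were lower. Ucp1, the uncoupling protein of thermogenic fat, had 61.5, 62.8 and 74.6 FPKM in Rarres2-/- libraries against 43.1, 46.6 and 56.1 FPKM in WT libraries. By limma its unadjusted p was 0.036 and its adjusted p 0.999. Dio2, which activates thyroid hormone, had 4.6, 2.08 and 2.88 FPKM in Rarres2-/- libraries against 1.72, 1.79 and 1.90 FPKM in WT libraries. Lymphocyte markers stayed at or under 48.8 FPKM, hepatocyte markers at or under 66.6 FPKM, and no epithelial marker reached the filter. Their part in the member values was not tested.

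The other genes of the pathway were described from 5 lists, which were also chosen with earlier results of these data known. Among 12 tested assembly enzymes outside the 9 genes (13 of 14 listed had a value), 8 were higher and 4 lower in Rarres2-/- fat, 0 passed the threshold, 0 had an unadjusted p under 0.05 by limma, and the median log2 difference was 0.11. Over all tested genes, 48.6% were positive and 3.93% had an unadjusted p under 0.05 in either direction. Lclat1, a lysocardiolipin acyltransferase, had 6.11, 6.19 and 5.51 FPKM in Rarres2-/- libraries against 5.04, 4.88 and 5.03 FPKM in WT libraries (log2 difference 0.21). It was higher without overlap (1 of 12, beside 5.81% of all tested genes). Mogat2, which acylates monoacylglycerol, had 0.745, 1.91 and 1.68 FPKM in Rarres2-/- libraries and 0.575, 0.780 and 0.666 FPKM in WT libraries, with overlapping groups (0.51). The third gene taken by smallest p, Agpat9, differed by 0.30.

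Of 14 tested genes of glycerol-3-phosphate supply outside Gpd1 and Pck1, 13 were higher in Rarres2-/- fat (48.6% of all tested genes were), with a median of 0.21 and 0 past the threshold. By limma 2 had an unadjusted p under 0.05 (3.93% of all tested genes), Gyk with higher and Pck2 with lower values. Gyk, the glycerol kinase that phosphorylates free glycerol, had 7.10, 4.11 and 4.13 FPKM in Rarres2-/- libraries against 2.95, 2.15 and 3.39 FPKM in WT libraries. All Rarres2-/- libraries were above all WT libraries (log2 difference 0.65, SE 0.234, unadjusted p 0.0275 by limma). Got2, the mitochondrial aspartate aminotransferase that helps carry carbon to Pck1, had 17.4, 16.3 and 15.3 FPKM in Rarres2-/- libraries against 10.6, 11.9 and 15.0 FPKM in WT libraries (0.37, no overlap). Pck2 was the lone gene of this list that was lower. Without overlap, 2 of the 14 were higher, beside 5.81% of all tested genes, and 1 lower, beside 4.53%. Aqp7, the glycerol channel of adipocytes, had 69.5, 36.0 and 54.5 FPKM in Rarres2-/- libraries and 65.4, 36.6 and 42.9 FPKM in WT libraries, with overlapping groups.

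Of 9 tested genes that supply fatty acyl chains, 8 were higher in Rarres2-/- fat and 1 lower (48.6% of all tested genes were higher), with a median of 0.18, 0 past the threshold and 2, both higher, at an unadjusted p under 0.05 by limma (2.2% of all tested genes). Acsl1, the main acyl-CoA synthetase of adipocytes, had 840.4, 1055 and 985 FPKM in Rarres2-/- libraries against 547, 645 and 619 FPKM in WT libraries. Cd36, the fatty acid transporter, had 963, 1262 and 1052 FPKM in Rarres2-/- libraries against 663, 832 and 785 FPKM in WT libraries. Neither gene overlapped between the groups (2 of 9 higher, beside 5.81% of all tested genes). Their log2 differences were 0.67 (SE 0.201, unadjusted p 0.0134 by limma) for Acsl1 and 0.52 for Cd36. Cd36 is also 1 of the 13 white adipocyte markers. Acsl4, a synthetase that prefers arachidonic acid, differed by 0.23.

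In the phospholipid branch, which takes phosphatidic acid or diacylglycerol away from triglyceride, 12 of 14 tested genes were higher in Rarres2-/- fat and 2 lower (48.6% of all tested genes were higher), with a median of 0.14, 0 past the threshold and 1, Ept1, at an unadjusted p under 0.05 by limma (2.2% of all tested genes were higher at that p). Ept1, which makes phosphatidylethanolamine from diacylglycerol, had 4.25, 4.12 and 3.72 FPKM in Rarres2-/- libraries against 2.84, 3.11 and 3.18 FPKM in WT libraries (log2 difference 0.31). It was higher without overlap (1 of 14, beside 5.81% of all tested genes). Cds1, which turns phosphatidic acid into CDP-diacylglycerol, differed by 0.27, and the cardiolipin synthase Crls1 by 0.29.

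Among 16 tested regulators of these enzymes or of lipid droplets, 10 were higher and 6 lower in Rarres2-/- fat (48.6% of all tested genes were higher), with a median of 0.11, 0 past the threshold and 2, both higher, at an unadjusted p under 0.05 by limma (2.2% of all tested genes). Fitm2, which partitions triglyceride into droplets, had 82.0, 78.9 and 68.2 FPKM in Rarres2-/- libraries against 31.8, 46.8 and 44.2 FPKM in WT libraries. Cebpb, an early transcription factor of adipogenesis, had 233, 191 and 317 FPKM in Rarres2-/- libraries against 151, 117 and 134 FPKM in WT libraries. Neither overlapped between the groups (2 of 16 higher, beside 5.81% of all tested genes). Their log2 differences were 0.90 (SE 0.194, adjusted p 0.939 by limma) for Fitm2 and 0.86 (SE 0.235) for Cebpb. The glucocorticoid receptor gene Nr3c1 was lower without overlap (1 of 16, beside 4.53% of all tested genes). It had 29.7, 40.98 and 40.96 FPKM in Rarres2-/- libraries against 41.02, 46.8 and 42.9 FPKM in WT libraries, so the groups almost touched. Its log2 difference was -0.24 (unadjusted p 0.226, adjusted p 0.999 by limma). Creb1, a cAMP-responsive factor, differed by -0.19. Pparg, the factor that directs many adipocyte genes, had 84.4, 186 and 185 FPKM in Rarres2-/- libraries and 181, 209.5 and 151 FPKM in WT libraries. Srebf1, which drives lipogenic genes, had 130.0, 173 and 194 FPKM in Rarres2-/- libraries and 169, 215 and 75.6 FPKM in WT libraries. Both overlapped, and Rarres2-/- replicate 4 was the lowest of the 6 libraries for Pparg, as for Dgat1 and Gpd1. Values of Aqp7, Pparg, Srebf1, Nr3c1, Agpat6 and Lpin3, and of the single markers named, were added after they had been seen.

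**Figure D5:**
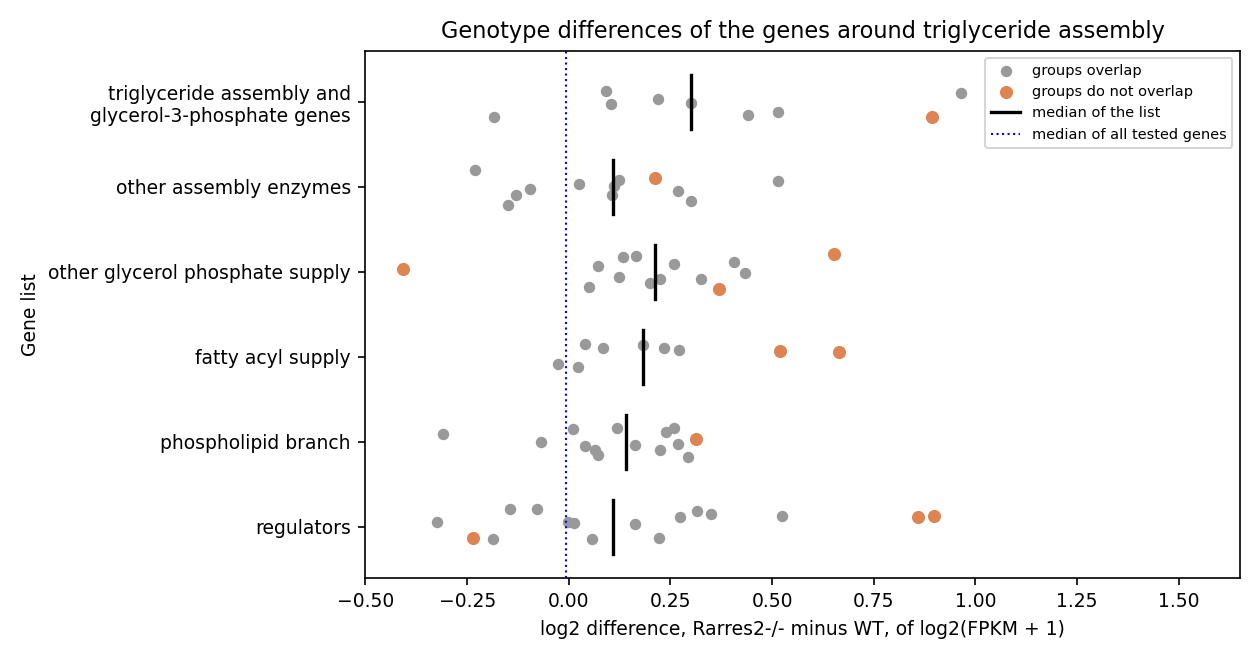
Difference in log2(FPKM + 1), Rarres2-/- minus WT, of every tested gene in the 9-gene set and in 5 further lists, with black bars at the list medians and a dotted line at the median of all tested genes (-0.01). The medians run from 0.11 to 0.30, and the coloured points are genes whose groups do not overlap.

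The genes most like the 9 in their pattern were sought among 5355 other genes whose mean reached 10 FPKM, by Pearson's r over the 6 libraries with the members' average deviation. The first 5 were Ehd2 (r = 0.987), a membrane protein of caveolae, Nrg4 (0.984), a growth factor secreted by brown and white fat, Aifm2 (0.974), an oxidoreductase, Cidec (0.972), a protein of the lipid droplet surface, and Acox3 (0.966), a peroxisomal acyl-CoA oxidase. Nrg4 had 48.4, 53.0 and 63.2 FPKM in Rarres2-/- libraries against 42.8, 39.4 and 35.0 FPKM in WT libraries. Cidec had 1786, 1825 and 2037 FPKM in Rarres2-/- libraries against 1564, 1617 and 1566 FPKM in WT libraries. For all 5 genes the Rarres2-/- libraries lay above the WT libraries, a separation that the likeness itself selects, since the members' average deviation also separates the groups. These values come from the same 6 libraries and describe them only.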

How the data were processed

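RNA-seq values of 6 libraries, 3 Rarres2-/- and 3 WT, were deposited by the authors as FPKM in a table each, as the headers state. That of WT replicate 3 is headed by the sample name and was read as FPKM from its scale. The submitters' processing notes give Bowtie and mm10 alone. For the annotation, the FPKM program, strand use, reads shared between gene copies, and versions, no entry was found (not given in the sources used here). Because FPKM keeps no counts, no counting interval can be given, and a few very abundant genes can shift all other values of a library. Rows without a symbol (737, 0.793% to 4.91% of the summed values) were left out.

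Genes whose mean reached 1 FPKM were tested on log2(FPKM + 1), which shrinks differences of low genes. The test was limma's (version 3.58.1, R 4.3.3; two-sided, with the variance trend of eBayes), genotype being the only term and 0.05 the Benjamini-Hochberg threshold. All adjusted p-values are limma's unless named as exact. The design had a test for counts and one for normalized values; the second applied. Pairs of members and levels relative to adipocyte markers were tested by exact permutation in scipy 1.17.1 (Python 3.11.15).

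The 9 members and all gene lists were chosen with earlier results of these data known. The text names the members, Rarres2, the 3 genes of each further pathway list with the smallest unadjusted p, summed marker lists, and the 5 genes whose pattern is most like the members' average. Family shares were added after the values were seen. Alternatives were a pseudocount of 0.1, no filter or 5 FPKM in 3 libraries, quantile, upper quartile and top-20-free scaling, array weights, no trend, robust eBayes, an adjusted p of 0.1 and each library left out. Removing WT replicate 1 and Rarres2-/- replicate 4 together, and removing each library's trend with transcript length (GENCODE M21, a length for 94.6% of tested genes), were added after seeing the data. Positions and promoters are RefSeq's on GRCm38.p6.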

Additional observations from a re-analysis of the deposited data

How the results depend on the processing

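No paired analysis was possible because the replicate numbers, 4 to 6 in Rarres2-/- and 1 to 3 in WT mice, are not shared between the genotypes. The count of genes past the threshold was 0 as reported, with a pseudocount of 0.1, no filter, quantile normalization, no trend, robust eBayes or the length trend removed. It was 1 with a filter of 5 FPKM in 3 libraries, upper quartile scaling, an adjusted p under 0.1 or rescaling with the top 20 genes left out, 1524 with array weights, 68 without WT replicate 1 and Rarres2-/- replicate 4, and 0 to 1 over the 6 fits that left out 1 library each. The number of members with a positive log2 difference was 7 to 8 over 17 alternatives, and the number higher without overlap was 1 to 5 with 1 library left out and 7 without that pair of libraries.

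With 1 library left out, log2 differences ran from 0.73 to 1.05 for Gpam, 0.34 to 0.77 for Agpat2, 0.01 to 0.18 for Agpat3, 0.06 to 0.40 for Lpin1, -0.27 to -0.10 for Lpin2, 0.10 to 0.45 for Dgat2, 0.23 to 0.79 for Gpd1 and 0.54 to 1.39 for Pck1. The low ends were without WT replicate 3 for Lpin1 and Dgat2, and without Rarres2-/- replicate 6 for Agpat2, Agpat3 and Gpd1. The Lpin2 value nearest 0 was also the one without Rarres2-/- replicate 6. The difference of Dgat1 ran from -0.12 to 0.44 and was -0.01 without Rarres2-/- replicate 5. Dgat2 minus Dgat1 ran from -0.10 to 0.40 and was -0.044 without WT replicate 1 and Rarres2-/- replicate 4. Pck1 minus Gpd1 ran from -0.25 to 1.09 and was -0.47 without that pair. Relative to adipocyte markers, Gpam ran from 0.59 to 1.04 and Agpat2 from 0.31 to 0.50. On that scale Lpin1 ran from -0.049 to 0.26, Agpat3 from -0.12 to 0.056, Dgat1 from -0.11 to 0.15 and Pck1 from 0.25 to 1.35. Without that pair Dgat1 was 0.21 and Pck1 -0.0021. The cause of these reversals was not tested. With 3 libraries in each group and unknown depth, differences of the size seen in most members lay within the spread between libraries.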
